A study of Mus musculus with 6 samples.

Results

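Type I interferon-stimulated genes are genes whose transcription rises when a cell is exposed to interferon alpha or beta. Their RNA was followed here in single liver cells of mice. The set is a list of 31 gene symbols, chosen with earlier results of these data known but without a threshold on the values. Of these, 29 were found among the 31253 features of the deposited matrices. Counts for the set beside those for all genes are thus a description. Mx1 and Mx2 were not analysed here. Isg15, Oasl1, Oas1a and Rsad2 were singled out from the list with earlier results of these data known, so their contrast with the other 25 genes is a description.

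The study profiled whole livers of 3 groups of 2 libraries each: control livers, livers of the pre-metastatic niche and livers of the macro-metastatic niche. The labels give the genotype of the controls as ctrl and that of both other groups as an orthotopic mouse model of colorectal cancer, and they name CT26-GFP, a fluorescent line of mouse colon carcinoma cells, under every library, controls included. Strain, age, sex and the time of each stage were not given in the labels used here. Nothing states that the replicates came from separate animals, so each p-value speaks of the spread among these libraries alone, which may be technical.

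Type I interferons bind a receptor of the chains Ifnar1 and Ifnar2, whose kinases Jak1 and Tyk2 phosphorylate Stat2. Stat2 acts with Irf9 in a complex that binds the interferon-stimulated response element in the promoters of its targets. The targets include sensors of foreign RNA, enzymes that degrade or block viral RNA, the ubiquitin-like modifier Isg15 and regulators such as Irf7 and Usp18 that amplify or damp the response. In the liver, Kupffer cells, the resident macrophages of the sinusoids, are a known source of interferon after sensing of nucleic acids or bacterial products.

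The response element is shown because it is the sequence through which these genes are known to be switched on. It was searched as GAAANNGAAA on both strands (TTTCNNTTTC on the other strand) in the 250 bases upstream of RefSeq start sites on GRCm38.p6. Of the 22 genes of the set with a window there, 9 held a match (40.9%), against 936 of 27025 genes overall (3.46%) and 978 of 32851 windows (2.98%). The matches were in Stat2, Isg15, Ifit1, Ifit3, Oas1a, Oas3, Trim30a, Rsad2 and Bst2. A match is a description of letters and not a site of binding. The upstream stretches below are read 5′ to 3′ on the strand of the gene, with the 4-base cores of the motif in capitals. Isg15, Oas1a and Rsad2 are shown because they rose, and Ifit1 and Bst2 for comparison. Isg15 lies at chr4:156200850-156200909 (minus strand), Oas1a at chr5:120907526-120907585 (minus), Rsad2 at chr12:26456538-26456597 (minus), Ifit1 at chr19:34640779-34640838 (plus) and Bst2 at chr8:71537562-71537621 (minus).
Isg15: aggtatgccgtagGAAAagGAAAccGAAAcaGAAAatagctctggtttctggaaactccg
Oas1a: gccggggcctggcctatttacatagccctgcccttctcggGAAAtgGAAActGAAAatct
Rsad2: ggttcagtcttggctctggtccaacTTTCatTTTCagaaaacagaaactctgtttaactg
Ifit1: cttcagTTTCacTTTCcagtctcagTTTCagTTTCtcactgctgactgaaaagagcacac
Bst2: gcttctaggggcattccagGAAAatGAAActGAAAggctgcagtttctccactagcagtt
Isg15 held 3 matches, Ifit1, Oas1a and Bst2 held 2 each, and Rsad2 held 1. The upstream window of Oasl1 held 0. Among the 9 genes with a match, Stat2, Isg15, Ifit1, Oas1a and Rsad2 were higher in macro-metastatic than in control livers in at least 1 cell class, while Ifit3, Oas3, Trim30a and Bst2 passed the test in no class in that comparison.

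On GRCm38, the build of the files, the gene bodies in GENCODE M21 lie at chr4:156199424-156200818 for Isg15, chr5:114923240-114937915 for Oasl1, chr5:120896256-120907521 for Oas1a and chr12:26442746-26456452 for Rsad2. In the last 500 bases of its longest transcript, Oas1a shares 46.6% of its 31-base words with other genes, the most with Oas1g. For Oas3 this share is 25.3%, the most with Cryzl2. The counts of both genes are thus uncertain where reads could be split between copies.

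Each library held 10590 to 14801 cell barcodes of at least 500 unique molecular identifiers (UMIs, counted transcripts). Total UMIs were 41914149 to 51750676 in the control and pre-metastatic groups, against 88986627 and 90819751 in the macro-metastatic group. After filters 65398 cells were kept, and pairs of libraries shared 126 to 222 barcodes. Cells were clustered without the genes of the set, and clusters were classed by markers, so that a class name means cells that are like that type by those markers. The 13 classes with at least 30 cells in every library were tested. The Kupffer class lay mostly in clusters 17 and 18 in the control and pre-metastatic groups, and mostly in cluster 25 in the macro-metastatic group. Endothelial cells moved from clusters 7, 10 and 13 to cluster 16, neutrophils from cluster 30 to clusters 31 and 32, and monocytes from cluster 27 to clusters 27 and 39. Control hepatocytes lay in cluster 11 (713 and 590 cells), which held 0 and 7 cells of the pre-metastatic libraries and none of the macro-metastatic ones, whose hepatocytes lay in clusters 8 and 12. Hepatocyte changes against control thus compare cells of different clusters. Hepatocytes numbered only 31 in macro-metastatic replicate 1.

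RNA of the set was most abundant in macro-metastatic replicate 1. Over all kept cells, the 29 genes together stood at 1294.9 and 1254.7 CPM (their UMIs scaled to a common total of UMIs, the usual CPM unit) in the control pair, 1598.2 and 1767.9 in the pre-metastatic pair, and 2808.3 and 1608.8 in the macro-metastatic pair. Macro-metastatic replicate 2 was thus within the range of the pre-metastatic libraries. In Kupffer cells the summed level was 1998.1 and 1914.6 CPM in the control pair, 2374.6 and 2563.2 in the pre-metastatic pair, and 4234.6 and 1996.3 in the macro-metastatic pair. Only replicate 1 of the macro-metastatic pair lay above the other groups there. Endothelial cells had 1457.4 and 1321.0, then 1245.3 and 1428.1, then 2253.1 and 1379.0 CPM, again with only that library above the rest. Kupffer cells held 35.6% and 28% of the set's UMIs in controls and 48.3% and 42.9% in macro-metastatic livers, and endothelial cells held 34.7% and 45% against 13.2% and 18.0%. In summed libraries, fewer cells of a type and less RNA per cell cannot be told apart. Levels within a class do not depend on how many cells the class holds. They can still mix cell states, as the clusters within Kupffer, endothelial and other classes shifted between groups.

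**Figure D1:**
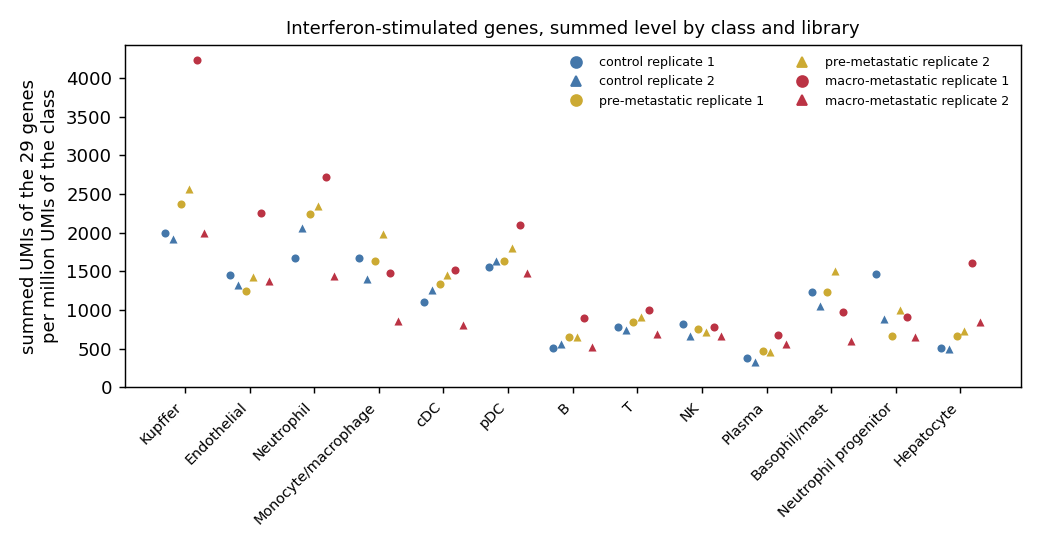
Summed level of the 29 genes in CPM of the same cells (y axis), in each cell class (x axis), with each point 1 library, colours for groups, circles for replicate 1 and triangles for replicate 2. In Kupffer, endothelial and neutrophil cells macro-metastatic replicate 1 is the highest point, and replicate 2 lies at or below the pre-metastatic points in Kupffer cells.

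Within classes, levels are given in CPM on library sizes scaled by the trimmed mean of M values, and changes as log2 fold changes ± standard error from edgeR's quasi-likelihood test, called at a Benjamini-Hochberg adjusted p under 0.05 over all genes tested in the class. A gene in a class is called a pair here, and 295 pairs passed the filter on low counts. Between macro-metastatic and control livers, 37 pairs were higher and 8 lower. Of the 116797 pairs of all genes, 18.1% were called, with 10.9% higher and 7.28% lower. Isg15, Oasl1, Oas1a and Rsad2 gave 20 of the 37 higher calls from 37 pairs, with 0 lower and a median log2 fold change of 2.79. The other 25 genes gave 17 higher and 8 lower calls from 258 pairs, with a median of -0.01, and 49.6% of their changes were above 0. As the 4 genes were singled out with these data known, this split is a description. The other 25 were not alike: Irf7 was above 0 in 9 of 9 classes (4 higher calls), and Ifi44 in 1 of 10 (1 lower call).

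Kupffer cells showed the rise of all 4 genes. Rsad2, which encodes viperin, an enzyme that makes a chain-terminating nucleotide, was at 92.9 and 91.0 CPM in the control pair, 103 and 137 in the pre-metastatic pair, and 1210.2 and 604 in the macro-metastatic pair of Kupffer cells. Both macro-metastatic libraries lay far above the other 4, and the log2 fold change against control was 3.30 ± 0.32 (adjusted p = 0.000105). Oasl1, an oligoadenylate synthetase-like protein known to repress translation of Irf7, was at 79.0 and 86.7, then 128 and 140.3, then 1007 and 238 CPM. The macro-metastatic replicates differed from each other by more than the other 4 libraries did, and the change was 2.91 ± 0.55 (adjusted p = 0.0039). Isg15, the ubiquitin-like modifier, was at 7.48 and 6.18, then 6.28 and 9.02, then 207 and 37.6 CPM. Both macro-metastatic values lay above those of the control and pre-metastatic libraries, and its change was 4.15 ± 0.75 (adjusted p = 0.00319). Oas1a, an oligoadenylate synthetase that activates RNase L, was at 5.32 and 5.23, then 9.02 and 8.48, then 78.0 and 27.4 CPM, a change of 3.32 ± 0.48 (adjusted p = 0.00102). Without control replicate 1, Isg15 gave an adjusted p of 0.05 and Oasl1 one of 0.0598, both short of a call, whereas Rsad2 and Oas1a were called in all 14 alternative analyses. In the same cells, the summed level of 8 endothelial markers was 6462.3 and 6132.0 CPM in controls and 933.2 and 1071.5 in macro-metastatic livers, and its part in the result was not tested.

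**Figure D2:**
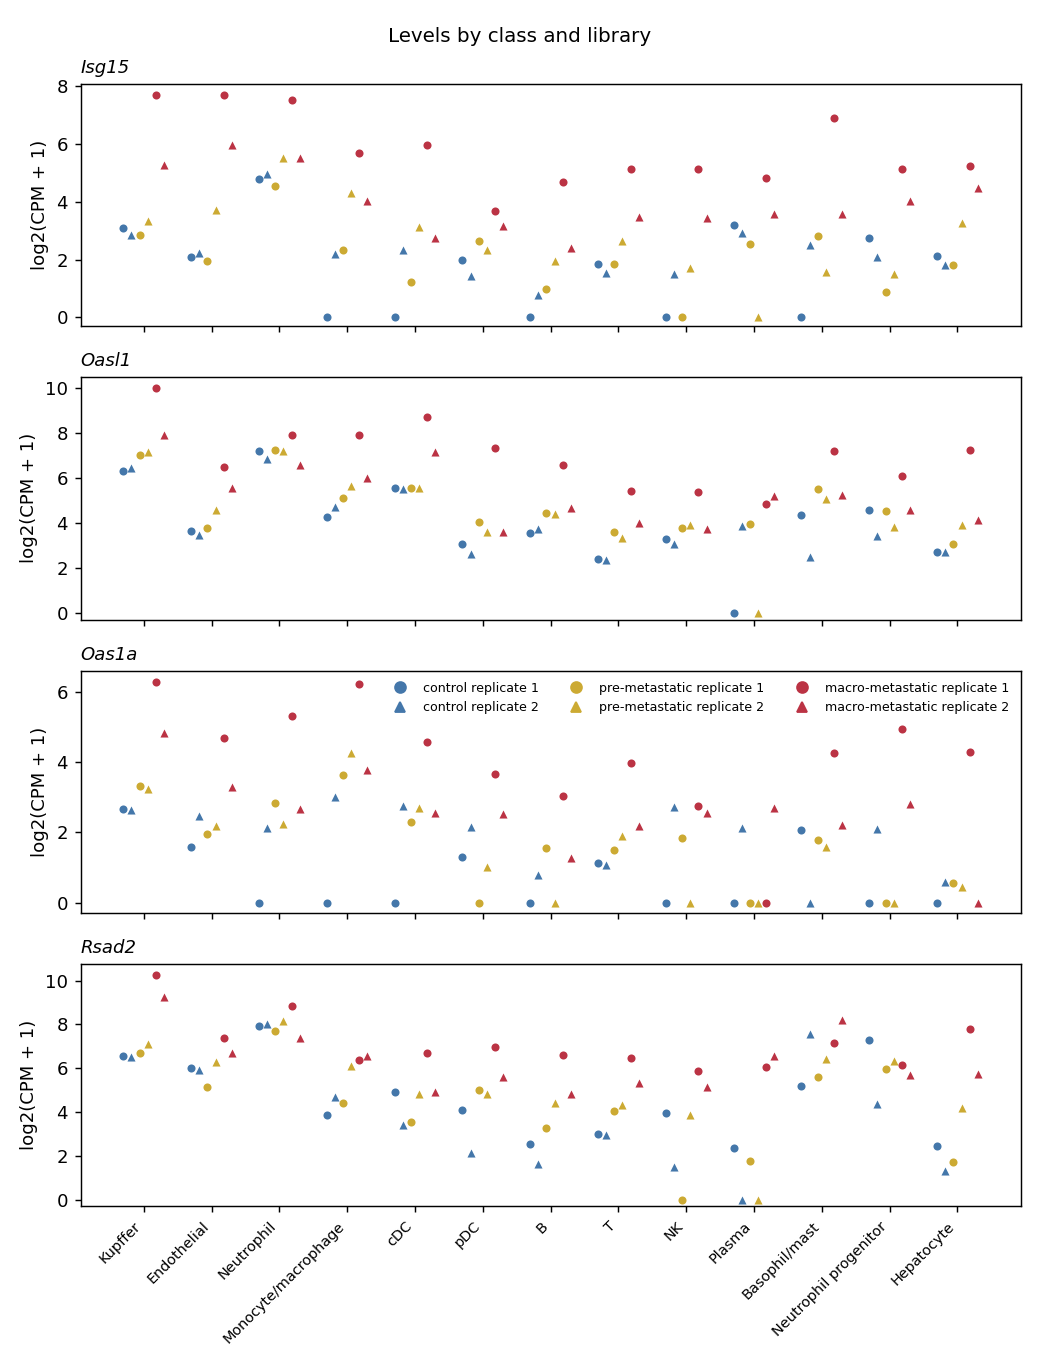
Levels of Isg15, Oasl1, Oas1a and Rsad2 as log2(CPM + 1) (y axis, a panel a gene) in each cell class (x axis), with each point 1 library, colours for groups, circles for replicate 1 and triangles for replicate 2. In Kupffer cells both macro-metastatic points of each gene lie above the control and pre-metastatic points, and replicate 1 lies above replicate 2.

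In endothelial cells Isg15, Oasl1 and Oas1a were called and Rsad2 was not. Isg15 was at 3.26 and 3.72 CPM in the control pair, 2.86 and 12.3 in the pre-metastatic pair, and 205 and 61.1 in the macro-metastatic pair of endothelial cells. The change of 5.24 ± 0.73 (adjusted p = 0.00261) was the largest of the 4 genes there, and without control replicate 1 its adjusted p was 0.0514. Oasl1 was at 11.4 and 10.1, then 12.6 and 23.1, then 88.3 and 45.7 CPM (2.64 ± 0.37, adjusted p = 0.00268), and this call was kept in all 14 alternatives. Oas1a was at 2.02 and 4.54, then 2.86 and 3.57, then 24.9 and 8.84 CPM (2.32 ± 0.54, adjusted p = 0.018), a call lost without either control library (adjusted p = 0.134 and 0.0588). Rsad2 was at 63.0 and 60.2 CPM in control and 167 and 102 in macro-metastatic endothelial cells (1.13 ± 0.36, adjusted p = 0.0534), which did not pass the test. Kupffer markers in endothelial cells went from 109.7 and 102.4 to 356.1 and 368.3 CPM, and neutrophil markers from 4.7 and 8.8 to 595.0 and 403.0 CPM. For each 100 Kupffer-marker UMIs, endothelial cells held 10.7 and 10.4 Oasl1 UMIs in controls and 23.4 and 11.2 in macro-metastatic livers. Replicate 2 was near the endothelial control ratio. Kupffer cells themselves held 0.666 and 0.771 in controls and 4.89 and 1.15 in macro-metastatic livers. The endothelial ratio for Isg15 was 3.05 and 3.85 in controls and 54.4 and 14.9 in macro-metastatic livers, above the controls in both. In Kupffer cells it was 0.0631 and 0.0549 in controls and 1.01 and 0.18 in macro-metastatic livers. The part of these transcripts in the endothelial results was not tested.

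In T cells all 4 genes were higher, and in B cells Rsad2 and Oasl1 were, at levels below those in Kupffer cells. Rsad2 in T cells was at 7.03 and 6.89 CPM in the control pair, 15.3 and 19.0 in the pre-metastatic pair, and 86.8 and 38.9 in the macro-metastatic pair of livers (3.12 ± 0.38, adjusted p = 0.000376). In B cells it was at 4.78 and 2.14, then 8.72 and 20.2, then 97.2 and 27.1 CPM (4.09 ± 0.66, adjusted p = 0.000529). Both calls were kept in all 14 alternatives, and no library of the macro-metastatic group overlapped another group. Isg15 in T cells was at 2.57 and 1.93, then 2.64 and 5.22, then 34.5 and 10.2 CPM (3.17 ± 0.61, adjusted p = 0.00454). Oasl1 in T cells was at 4.29 and 4.13, then 11.1 and 8.90, then 41.2 and 14.7 CPM (2.64 ± 0.47, adjusted p = 0.00303), and Oas1a was at 1.20 and 1.10, then 1.85 and 2.76, then 14.8 and 3.56 CPM (2.79 ± 0.73, adjusted p = 0.019). T cells therefore held calls of all 4 genes, and B cells of Rsad2 and Oasl1, the latter lost in 1 of 14 alternatives. NK cells, the other lymphocyte class named by its own markers, held 0 calls among the 11 genes of the set tested there.

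Transcripts of other cell types rose in the lymphocyte classes alongside. The summed level of 8 Kupffer markers in T cells was 69.3 and 68.3 CPM in controls, 149.9 and 157.9 in the pre-metastatic pair, and 440.5 and 381.2 in the macro-metastatic pair. In B cells it was 74.7 and 97.2, then 156.2 and 188.1, then 431.8 and 451.6 CPM, with 7 or 8 of the 8 markers detected in every library. Neutrophil markers in T cells rose from 11.8 and 11.5 through 182.8 and 157.3 to 955.7 and 522.0 CPM. For each 100 Kupffer-marker UMIs, T cells held 10.1 and 10.3 Rsad2 UMIs in controls, 10.3 and 12.1 in pre-metastatic livers, and 19.5 and 10.1 in macro-metastatic livers. In B cells the ratio was 6.25 and 2.24, then 5.73 and 10.9, then 21.8 and 5.97. In Kupffer cells themselves it was 0.784 and 0.809, then 0.7 and 0.993, then 5.87 and 2.9. Macro-metastatic replicate 2 was thus at the control ratio in T cells, and replicate 1 was above it in both lymphocyte classes. The part of these transcripts in the lymphocyte results was not tested.

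Hepatocytes, plasma cells and dendritic cells gave further calls from few cells or UMIs. Rsad2 in hepatocytes was at 4.44 and 1.52, then 2.31 and 17.3, then 222 and 52.1 CPM (4.87 ± 0.92, adjusted p = 0.00248), resting on 12 and 22 UMIs in the macro-metastatic libraries. Isg15 there was at 3.41 and 2.54, then 2.54 and 8.66, then 37.1 and 21.3 CPM (2.97 ± 0.85, adjusted p = 0.0274), with 2 and 9 UMIs. Kupffer markers in hepatocytes were at 114.0 and 21.3 CPM in controls against 2146.4 and 591.3 in macro-metastatic livers, and their part was not tested. In plasma cells Rsad2 had 1 UMI in the controls and 51 in the macro-metastatic libraries, a ratio of 38.1 with a 95% counting interval of 6.53 to 1533, while Kupffer markers there went from 39.3 and 10.7 to 486.4 and 470.0 CPM. Oasl1 in conventional dendritic cells (cDC) was at 45.5 and 44.8, then 46.0 and 45.9, then 419.8 and 139 CPM (2.62 ± 0.47, adjusted p = 0.00901). The 4 control and pre-metastatic values of Oasl1 in cDC hardly differed, and both macro-metastatic values lay above them. Kupffer markers in cDC were at 384.0 and 279.9 CPM in controls and 366.8 and 357.9 in macro-metastatic livers. Neutrophil markers in cDC went from 56.8 and 35.9 to 654.2 and 465.1 CPM and endothelial markers from 2593.0 and 1946.3 to 506.7 and 682.7 CPM, and their part was not tested. The Oasl1 call was lost without either control library (adjusted p = 0.0768 and 0.0513). In plasmacytoid dendritic cells (pDC) Rsad2 was at 16.1 and 3.44, then 31.1 and 27.5, then 123 and 47.3 CPM (2.86 ± 0.65, adjusted p = 0.0451), a call lost in 5 of 13 alternatives. Kupffer markers in pDC were at 1302.4 and 35.2 CPM in controls and 2086.4 and 986.0 in macro-metastatic livers, and their part was not tested.

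In neutrophils and their progenitors none of the 4 genes was called against control. Rsad2 in neutrophils was at 241 and 259 CPM in the control pair, 208 and 286 in the pre-metastatic pair, and 453 and 167 in the macro-metastatic pair of livers. The macro-metastatic pair spanned all other libraries. Isg15 in neutrophils was at 26.8 and 29.9, then 22.1 and 45.2, then 184 and 44.3 CPM (1.99 ± 0.81, adjusted p = 0.157), with both macro-metastatic libraries above the controls and replicate 2 just below the higher pre-metastatic one. Isg15 in the progenitors was at 5.69 and 3.27 CPM in control and 34.5 and 15.1 in macro-metastatic livers (2.47 ± 0.78, adjusted p = 0.0979), from 2 and 1 control UMIs. In neutrophil progenitors Rsad2 was at 154 and 19.6 CPM in control and 70.4 and 51.4 in macro-metastatic livers, and this was the only one of the 37 pairs of the 4 genes with a log2 fold change below 0.

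**Figure D3:**
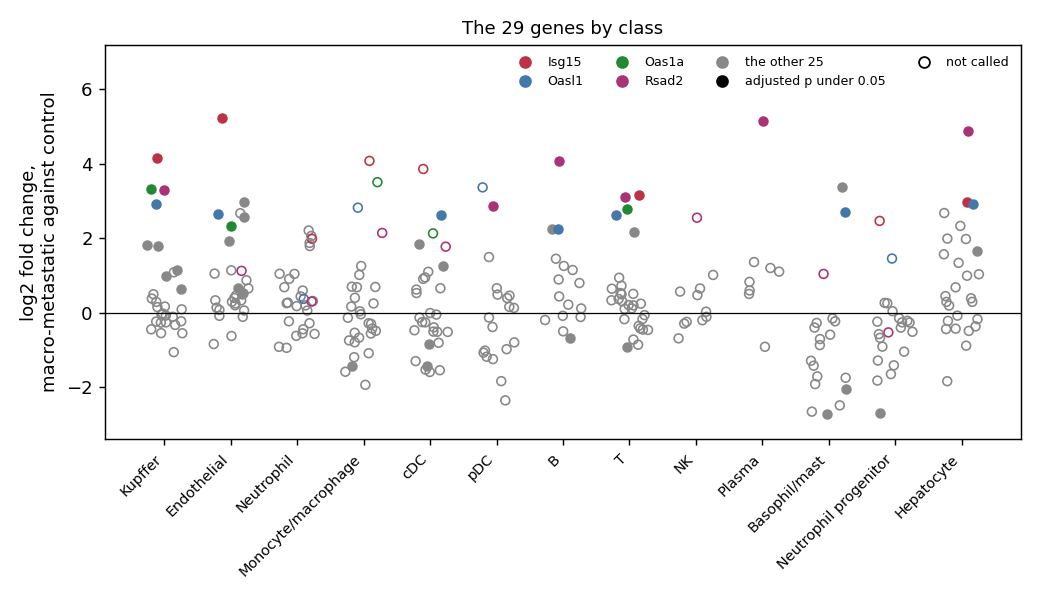
Log2 fold change, macro-metastatic against control (y axis), of each tested gene of the set (points) in each cell class (x axis), with called pairs filled and Isg15, Oasl1, Oas1a and Rsad2 in colour; Zbp1 in neutrophils, at 0 UMIs in controls, is left out. The coloured points lie above 0 in 36 of 37 pairs, and the grey ones scatter on both sides of 0.

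The transcription factors of the pathway moved apart from each other. Irf7, which drives further interferon production, was at 3.17 and 4.06 CPM in the control pair, 3.62 and 6.23 in the pre-metastatic pair, and 26.6 and 16.7 in the macro-metastatic pair of endothelial cells (2.57 ± 0.34, adjusted p = 0.00215). In T cells it was at 3.60 and 3.58, then 4.50 and 6.75, then 20.3 and 13.2 CPM (2.17 ± 0.39, adjusted p = 0.00307). Both Irf7 calls were kept in all 14 alternatives. Irf7 in Kupffer cells was at 26.0 and 26.0, then 39.4 and 42.6, then 142 and 36.9 CPM (1.78 ± 0.51, adjusted p = 0.0249). There macro-metastatic replicate 2 lay below both pre-metastatic libraries, and the call was lost in 5 of 14 alternatives. Stat2 was higher in endothelial cells, at 64.1 and 68.9, then 62.3 and 64.3, then 91.0 and 98.3 CPM (0.51 ± 0.14, adjusted p = 0.0298), and was not called without scaling of library sizes (adjusted p = 0.113). Irf9 passed the test in no class against control, with changes from -0.42 to 0.60 over 13 classes.

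Among the sensors of nucleic acids, Ifih1 and Ddx58 changed in opposite directions in B cells. Ifih1, which encodes the RNA sensor MDA5, was at 60.2 and 56.3, then 74.1 and 79.7, then 138 and 92.3 CPM in Kupffer cells (0.98 ± 0.19, adjusted p = 0.00441), and this call was kept in all 14 alternatives. In B cells Ifih1 was at 4.78 and 3.56, then 8.72 and 17.3, then 30.5 and 12.8 CPM (2.26 ± 0.61, adjusted p = 0.0166). Its macro-metastatic values there overlapped the pre-metastatic ones, and the call was lost in 4 of 14 alternatives (without macro-metastatic replicate 1, adjusted p = 0.161). Ddx58, which encodes RIG-I, was lower in T cells, at 112 and 97.3, then 114 and 99.8, then 65.8 and 47.5 CPM (-0.92 ± 0.19, adjusted p = 0.00658). In B cells it was at 107 and 109, then 109 and 89.3, then 68.2 and 67.7 CPM (-0.67 ± 0.19, adjusted p = 0.0241), a call lost in 5 of 14 alternatives, with DESeq2 (adjusted p = 0.156) and without any one control or macro-metastatic library (0.0686 to 0.114). Ddx58 in cDC was at 32.0 and 24.5, then 24.2 and 33.5, then 15 and 6.34 CPM (-1.44 ± 0.42, adjusted p = 0.0488), a call lost in 10 of 14 alternatives. The T-cell call of Ddx58 was lost only without macro-metastatic replicate 2 (adjusted p = 0.0844). Across its 13 classes Ddx58 had a median change of -0.44 and was above 0 in 2.

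Dhx58, which encodes the regulator LGP2, was at 17.4 and 18.9, then 26.2 and 24, then 34.0 and 22.6 CPM in Kupffer cells (0.64 ± 0.21, adjusted p = 0.0409), a call lost in 9 of 14 alternatives. Zbp1, a sensor of Z-form nucleic acids, was at 0.672 and 0.344, then 2.86 and 3.02, then 5.16 and 2.67 CPM in endothelial cells (2.96 ± 0.52, adjusted p = 0.00678). Its pre-metastatic level was already near the macro-metastatic one. In neutrophils Zbp1 had 0 UMIs in both controls, 10.8 and 5.65 CPM in the pre-metastatic pair, and 32.4 and 15.5 CPM in the macro-metastatic pair. Against a floor of 3 counts over the control group, it was at least 3.46-fold higher in macro-metastatic livers (adjusted p = 0.047). Eif2ak2, the RNA-dependent kinase PKR, was lower in cDC, at 42.6 and 44.8, then 36.3 and 38.6, then 28.4 and 21.3 CPM (-0.82 ± 0.22, adjusted p = 0.0381), a call lost in 11 of 14 alternatives.

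The effectors gave scattered calls. Ifit1, which binds foreign RNA, was at 16.1 and 14.7, then 18.2 and 27.6, then 75.8 and 33.0 CPM in Kupffer cells (1.81 ± 0.38, adjusted p = 0.00657). In endothelial cells it was at 30.9 and 23.4, then 16.0 and 54.7, then 127 and 80.7 CPM (1.94 ± 0.48, adjusted p = 0.0233). Its neighbours Ifit2 and Ifit3 were not called against control in any class. Ifi35 was at 8.49 and 10.3, then 8.46 and 9.74, then 26.1 and 15.8 CPM in Kupffer cells (1.16 ± 0.27, adjusted p = 0.0102), and at 12.6 and 13.9, then 18.7 and 17.4, then 40.2 and 24.2 CPM in cDC (1.27 ± 0.33, adjusted p = 0.0343), the latter lost in 8 of 14 alternatives. Parp14, an ADP-ribosyltransferase, went both ways. It was at 88.4 and 90.3, then 92.5 and 101, then 151 and 130.1 CPM in endothelial cells (0.66 ± 0.14, adjusted p = 0.0147). In the monocyte and macrophage class it was at 116 and 135, then 77.0 and 124, then 51.2 and 41.7 CPM (-1.43 ± 0.30, adjusted p = 0.0207). In hepatocytes Parp14 was at 15 and 15.7, then 27.0 and 28.1, then 18.5 and 54.5 CPM (1.65 ± 0.43, adjusted p = 0.0189), where the macro-metastatic pair spanned the pre-metastatic values. The Parp14 calls were lost in 4 of 14 alternatives in endothelial cells, 5 of 14 in the monocyte and macrophage class (gated on single cells, adjusted p = 0.116) and 6 of 13 in hepatocytes (without macro-metastatic replicate 2, adjusted p = 0.913).

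Calls in the basophil and mast cell class ran in opposite directions. Isg20, an RNA exonuclease, was at 9.64 and 4.63, then 14.5 and 18.0, then 73.0 and 90.4 CPM (3.39 ± 0.59, adjusted p = 0.00207), and it was called in all 13 alternatives run there. Ifi44 was at 80.4 and 55.6, then 89.2 and 114, then 18.2 and 3.62 CPM (-2.73 ± 0.63, adjusted p = 0.00928). Ifih1 there was at 54.6 and 64.8, then 41.0 and 30.0, then 18.2 and 10.8 CPM (-2.04 ± 0.55, adjusted p = 0.0195). Endothelial markers in this class were at 11183.4 and 8178.7 CPM in controls and 523.9 and 432.4 in macro-metastatic livers, moving with the lower genes, and their part was not tested. Oasl1 was higher, at 19.3 and 4.63, then 44.6 and 32.0, then 146 and 36.2 CPM (2.72 ± 0.77, adjusted p = 0.0243). Cmpk2, a nucleotide kinase encoded next to Rsad2, was lower in neutrophil progenitors, at 39.9 and 62.0, then 8.34 and 18.7, then 9.80 and 4.54 CPM (-2.70 ± 0.55, adjusted p = 0.0308). This call was lost in 6 of 13 alternatives. Rsad2 in the same class had a change of -0.53 ± 0.62 (adjusted p = 0.634), which did not pass the test. Neutrophil markers in the progenitor class went from 8.5 and 17.5 through 2278.8 and 889.4 to 3203.6 and 917.9 CPM. Endothelial markers there went from 5570.9 and 4584.5 through 759.6 and 3663.5 to 2429.9 and 3165.5 CPM. The part of both was not tested.

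The remaining genes passed the test nowhere against control: Trim30a, Irf9, Xaf1, Ifi27, Rtp4, Oasl2, Bst2, Ifit2, Ifit3, Oas2, Oas3 and Usp18. Xaf1, Ifi27, Oasl2, Oas3 and Usp18 were called in none of the 3 comparisons. Macro-metastatic against control, Xaf1 ranged from -1.83 to 1.88 over 12 classes, Ifi27 from -0.98 to 0.70 over 12 and Oasl2 from -2.35 to 0.94 over 10. Oas3 ranged from 0.21 to 2.67 over 6 classes and Usp18, which removes Isg15 from proteins, from -1.59 to 0.45 over 9.

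Read by class, the calls of the set stood beside many calls among all genes. In Kupffer cells 9 of 29 genes were higher and 0 lower, where 39.2% of all genes were called in either direction. In endothelial cells 8 were higher of 29, where 25.9% were called. T cells had 5 higher and 1 lower of 29 (26.0% of all genes called), B cells 3 and 1 of 16 (18.5%), cDC 3 and 2 of 29 (17.5%), and basophils and mast cells 2 and 2 of 19 (25.4%). Hepatocytes had 4 higher of 27 (14.7%), neutrophils 1 of 28 (10.1%), pDC 1 of 19 (4.64%) and plasma cells 1 of 8 (6.65%). The monocyte and macrophage class had 1 lower of 29 (7.87%), neutrophil progenitors 1 lower of 22 (6.42%) and NK cells 0 of 11 (11.5%). Counted in either direction, the share of the set was near or below this background in most classes. Among all genes, 2709 of 13127 were higher in Kupffer cells and 2057 of 12637 in endothelial cells. By higher calls alone the set's share was above that of all genes in both classes. It was below in neutrophils, where 439 of 8038 genes were higher. These shares were not tested. The set's median log2 fold change was 0.51 in endothelial cells against -0.02 for all genes, and 0.15 in Kupffer cells against 0.00, where it was -0.05 without scaling of library sizes.

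The replicates of the macro-metastatic group differed in the same direction for nearly the whole set. Replicate 1 was above replicate 2 in 247 of 295 pairs (83.7%), where 47.6% of all genes were higher in replicate 1. In Kupffer cells this held for 28 of 29 genes, with a median difference of 1.01 in log2(CPM + 1) against 0.00 for all genes. Isg15 differed by 2.43, Oasl1 by 2.07 and Irf7 by 1.92 on the log2 scale, and Ifi27 at -0.65 was the 1 gene lower in replicate 1. Neutrophils gave 27 of 28, endothelial cells, T cells and cDC 26 of 29 each, and hepatocytes 13 of 27. Bst2 was higher in replicate 1 in only 4 of 10 classes and Stat2 in 5 of 13. Among controls replicate 1 was higher in 185 pairs (62.7%, all genes 50.4%), and among pre-metastatic livers in 85 (28.8%, all genes 50.7%). Libraries of a group thus differed in the level of the set as a whole, and the pre-metastatic pair did so the other way round from the macro-metastatic pair.

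**Figure D4:**
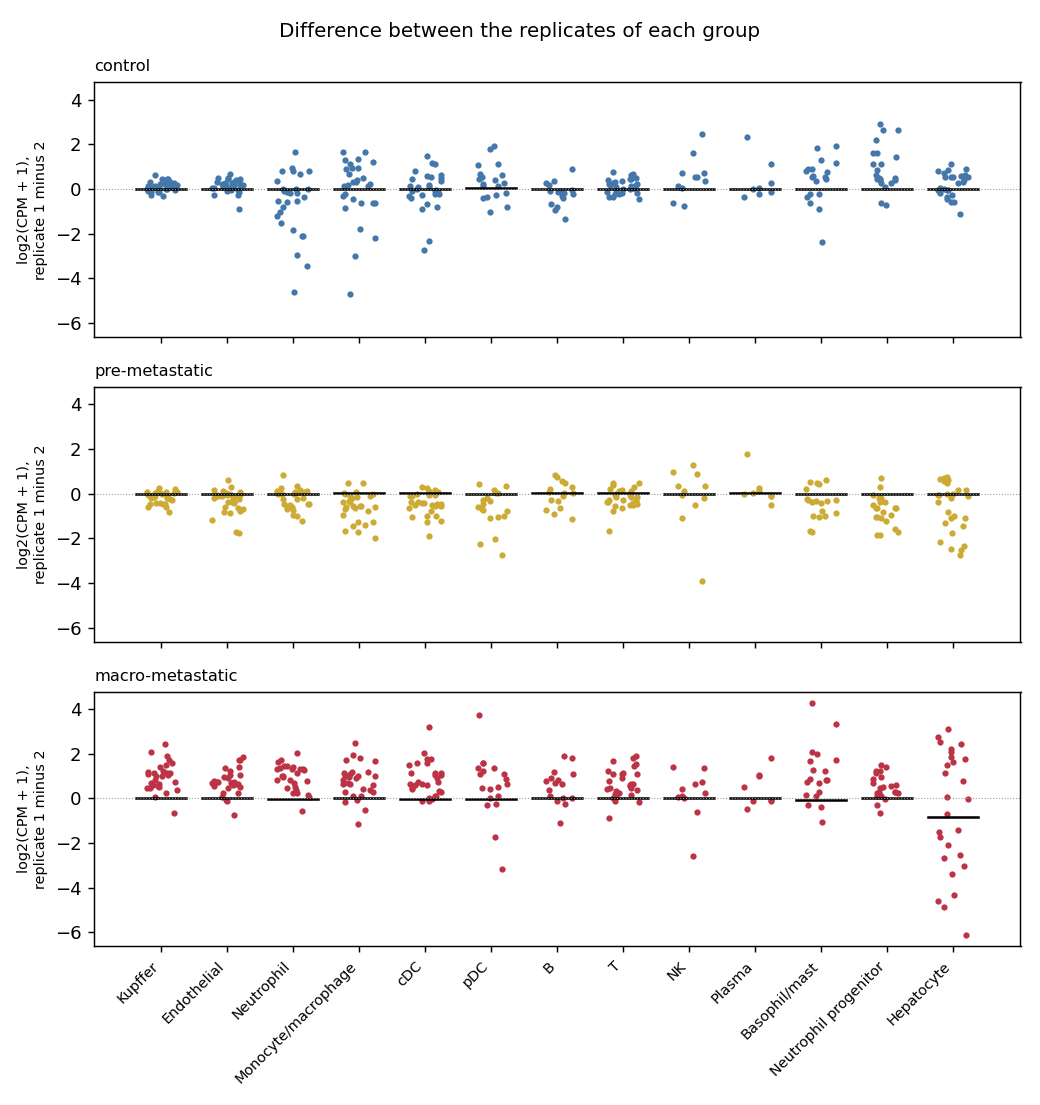
Replicate 1 minus replicate 2 in log2(CPM + 1) (y axis) of each gene of the set (points) in each cell class (x axis), a panel a group, with black lines at the median over all genes tested. Macro-metastatic points lie above 0 in 247 of 295 pairs, control points in 185 and pre-metastatic points in 85.

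Set singly against both controls, the macro-metastatic libraries agreed on the 4 genes and not on the rest. Replicate 1 was above both controls in 35 of 37 pairs of Isg15, Oasl1, Oas1a and Rsad2 and below both in 0, and replicate 2 was above in 32 and below in 2. For the other 25 genes, replicate 1 was above both controls in 133 of 258 pairs and below in 71, whereas replicate 2 was above in 81 and below in 128. The counts of calls moved accordingly: without macro-metastatic replicate 1 they were 26 higher and 22 lower, and without replicate 2 they were 58 higher and 0 lower. Without control replicate 1 they were 19 and 1, and without control replicate 2 they were 22 and 4. Most pairs of the 4 genes, which were chosen with these data known, lay above the controls in either macro-metastatic library. The number of lower genes moved with the library used. How often all genes lay above or below both controls was not counted, so these numbers are a description.

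Pre-metastatic livers gave no call against control. All 295 pairs missed the threshold in edgeR's quasi-likelihood test, 30 had an unadjusted p under 0.05, and DESeq2 called 1. Of all genes 0.253% were called over the classes: 0.14% in B cells, 0.19% in endothelial cells, 1.48% in hepatocytes, 0.427% in Kupffer cells, 0.0658% in NK cells, 0.0239% in plasma cells, 0.439% in T cells and 0.0% in the other 6. The changes were above 0 in 204 of 295 pairs (69.2%), with a median of 0.22, and for the 4 genes in 30 of 37 with a median of 0.75. Zbp1 in endothelial cells had a change of 2.57 ± 0.55 (adjusted p = 0.143), Rsad2 in T cells one of 1.29 ± 0.39 (adjusted p = 0.313) and Oas2 in Kupffer cells one of 0.68 ± 0.17 (adjusted p = 0.171). In each of these the control and pre-metastatic libraries did not overlap, but none passed the test. How often this held among all genes was not counted.

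Macro-metastatic against pre-metastatic livers, 26 pairs were higher and 16 lower, beside 14.8% of all pairs called. The 4 genes again gave higher calls and no lower one, 17 of 37 with a median of 1.88, while the other 25 gave 9 higher and 16 lower with a median of -0.20. This comparison shares its macro-metastatic libraries with the one against control. By class, higher and lower calls were 7 and 2 in Kupffer cells (34.8% of all genes called), 7 and 0 in endothelial cells (13.5%), 4 and 2 in T cells (20.3%), 1 and 4 in cDC (18.4%), 2 and 4 in basophils and mast cells (29.3%) and 1 and 4 in the monocyte and macrophage class (12.1%). B cells (14.4%), hepatocytes (4.51%), neutrophil progenitors (4.32%) and plasma cells (5.67%) had 1 higher call each, and NK cells (9.59%), neutrophils (9.94%) and pDC (3.42%) had 0.

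Rsad2 in Kupffer cells was higher by 2.92 ± 0.31 (adjusted p = 0.000206), Isg15 by 4.0 ± 0.70 (adjusted p = 0.00307), Oas1a by 2.59 ± 0.43 (adjusted p = 0.00222) and Oasl1 by 2.22 ± 0.53 (adjusted p = 0.0126). In neutrophil progenitors Isg15 was at 5.69 and 3.27 CPM in the control pair, 0.834 and 1.87 in the pre-metastatic pair, and 34.5 and 15.1 in the macro-metastatic pair of livers (4.34 ± 0.79 against pre-metastatic, adjusted p = 0.0209). Oasl1 in the monocyte and macrophage class was at 17.9 and 24.9, then 32.9 and 48.7, then 242 and 62.6 CPM (1.96 ± 0.53, adjusted p = 0.0428). Rsad2 in basophils and mast cells was at 35.4 and 189.8, then 48.2 and 84.1, then 141 and 296 CPM (1.77 ± 0.60, adjusted p = 0.0449), and its control pair spanned both pre-metastatic values. Bst2, the tether of budding virions, was at 86.7 and 76.0, then 54.3 and 71.2, then 95.2 and 161 CPM in endothelial cells (1.02 ± 0.26, adjusted p = 0.0378). The calls of Oasl1 in the monocyte and macrophage class and of Bst2 were each lost in 7 of 14 alternatives.

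Several of the lower genes were highest in pre-metastatic livers. Oas2 in Kupffer cells was at 51.0 and 50.6 CPM in the control pair, 83.4 and 79.0 in the pre-metastatic pair, and 49.4 and 35.2 in the macro-metastatic pair of livers (-0.94 ± 0.17, adjusted p = 0.00321), and this call was kept in all 14 alternatives. In cDC it was at 10.7 and 9.78, then 22.6 and 20.7, then 6.71 and 7.49 CPM (-1.60 ± 0.27, adjusted p = 0.00659). In the monocyte and macrophage class it was at 35.7 and 32.0, then 70.8 and 70.1, then 37.4 and 16.4 CPM (-1.34 ± 0.33, adjusted p = 0.0318). The pre-metastatic values of Oas2 lay above those of both other groups in all 3 classes. Oas2 and Oas1a, which lie close to each other on chromosome 5, therefore moved in opposite directions in Kupffer cells. Irf9 in Kupffer cells was at 102 and 90.7, then 118 and 112, then 87.3 and 66.3 CPM (-0.58 ± 0.15, adjusted p = 0.0198). Ifit3 in cDC was at 6.78 and 8.15, then 9.73 and 14.1, then 3.55 and 2.59 CPM (-1.97 ± 0.40, adjusted p = 0.0137), and in basophils and mast cells at 32.1 and 13.9, then 27.7 and 52.0, then 9.12 and 0 CPM (-3.15 ± 0.95, adjusted p = 0.0279). The Ifit3 calls were lost in 3 of 14 alternatives in cDC and 2 of 12 in basophils and mast cells.

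Trim30a, a ubiquitin ligase of the tripartite motif family, was lower in 3 classes. In cDC it was at 229.6 and 365, then 451 and 376, then 261 and 171 CPM (-0.94 ± 0.26, adjusted p = 0.0413). In T cells it was at 130.3 and 136, then 144 and 158, then 109.5 and 87.1 CPM (-0.63 ± 0.16, adjusted p = 0.0218), and in basophils and mast cells at 80.4 and 125, then 189 and 130.1, then 73.0 and 39.8 CPM (-1.54 ± 0.41, adjusted p = 0.0168). These Trim30a calls were lost in 6 of 14 alternatives in cDC, 5 of 14 in T cells and 3 of 13 in basophils and mast cells. Each was lost without macro-metastatic replicate 2. Ifit2 in basophils and mast cells was at 35.4 and 18.5, then 28.9 and 96.1, then 18.2 and 0 CPM (-2.82 ± 0.95, adjusted p = 0.0449). Pre-metastatic replicate 2 of Ifit2 stood above the other 5 libraries, and the call was lost in 5 of 13 alternatives. Endothelial markers in basophils and mast cells went from 7837.7 and 12689.9 CPM in pre-metastatic to 523.9 and 432.4 in macro-metastatic livers. In cDC they went from 1247.3 and 2930.4 to 506.7 and 682.7 CPM. The part of these markers in the lower calls of both classes was not tested. Cmpk2 in the monocyte and macrophage class was at 8.93 and 3.55, then 22.9 and 24.8, then 8.11 and 4.82 CPM (-1.82 ± 0.38, adjusted p = 0.0169). Rtp4, a chaperone of receptors, was there at 71.4 and 64.0, then 63.8 and 111, then 40.1 and 17.0 CPM (-1.54 ± 0.39, adjusted p = 0.0331). With classes gated on single cells neither was called (adjusted p = 0.854 for Cmpk2 and 0.611 for Rtp4).

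To ask whether classes changed by different amounts, the change in each class was tested against that in B cells of the same libraries. Macro-metastatic against control, 1 pair was higher and 13 were lower than in B cells, and with T cells as the reference 9 were higher and 13 lower. Rsad2 rose less than in B cells by 2.90 ± 0.55 in endothelial cells (difference -2.90, adjusted p = 0.0111), and the differences were -3.65 ± 0.47 in neutrophils (adjusted p = 0.000288), -4.42 ± 0.68 in neutrophil progenitors (adjusted p = 0.0124) and -2.33 ± 0.47 in cDC (adjusted p = 0.00693). Only 8 control UMIs of Rsad2 in B cells stand behind these differences. The control cells of the progenitor class carried the endothelial markers given above, whose part was not tested. Stat2 was the 1 gene higher, by 1.04 ± 0.23 in endothelial cells (adjusted p = 0.0231). Of the 4 genes, Oasl1 and Rsad2 could be compared between Kupffer and B cells, with differences of 0.49 ± 0.28 (adjusted p = 0.303) and -0.80 ± 0.57 (adjusted p = 0.387) that did not pass the test. Rtp4 was lower in Kupffer than in B cells (-1.58 ± 0.41, adjusted p = 0.0193). The share of all genes that differed from B cells was 15.5% in Kupffer cells, 5.95% in endothelial cells, 16.0% in basophils and mast cells, 10.4% in hepatocytes, 2.91% in the monocyte and macrophage class, 2.35% in NK cells, 4.03% in neutrophils, 0.707% in neutrophil progenitors, 1.62% in plasma cells, 5.08% in T cells, 6.46% in cDC and 2.92% in pDC. Pre-metastatic against control no pair of the set differed from B cells, and the shares over all genes were 0.614% in hepatocytes, 0.0591% in Kupffer cells, 0.0122% in the monocyte and macrophage class, 0.017% in NK cells, 0.0432% in neutrophils, 0.0257% in neutrophil progenitors, 0.0246% in plasma cells, 0.0475% in T cells and 0.0% in the other 4.

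Among the ligands, Ifnb1, the gene of interferon beta, was the one with a called rise. Its UMIs over all kept cells numbered 1 and 5 in the control pair, 22 and 29 in the pre-metastatic pair, and 723 and 350 in the macro-metastatic pair of livers. Kupffer cells held 463 and 230 of the macro-metastatic UMIs (64.0% and 65.7%), unnamed clusters held 185 and 83, and mixed clusters 28 and 19. Before scaling of library sizes this was 17.3 and 7.99 CPM in Kupffer cells, 15.955 and 9.555 in unnamed clusters and 16.1 and 8.96 in mixed ones. The level in those untested clusters was thus near that in Kupffer cells, and above it in replicate 2. In Kupffer cells its level was 0.127 and 0.476 CPM in the control pair, 0.995 and 0.199 in the pre-metastatic pair, and 19.3 and 8.45 in the macro-metastatic pair of livers (5.57 ± 0.81, adjusted p = 0.00104). From 4 control UMIs the ratio was 42.1, with a 95% counting interval of 16.3 to 155. Like the 4 genes, Ifnb1 was higher in both macro-metastatic libraries and highest in replicate 1. In cDC its UMIs were 0 and 2, then 4 and 19, then 18 and 2, and in T cells 0 in every library. Ifna2 had 3 and 11 UMIs in the control pair, 3 and 4 in the pre-metastatic pair, and 43 and 4 in the macro-metastatic pair of livers, and 13 of the 21 ligand genes had 0 UMIs. Ifng, the type II interferon, numbered 1426 and 561, then 758 and 983, then 303 and 554 UMIs, mostly in T cells. In Kupffer cells Ifng was lower, from 2.79 and 0.476 to 0.166 and 0.221 CPM (-3.08 ± 0.76, adjusted p = 0.0135), on 4 and 6 macro-metastatic UMIs.

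**Figure D5:**
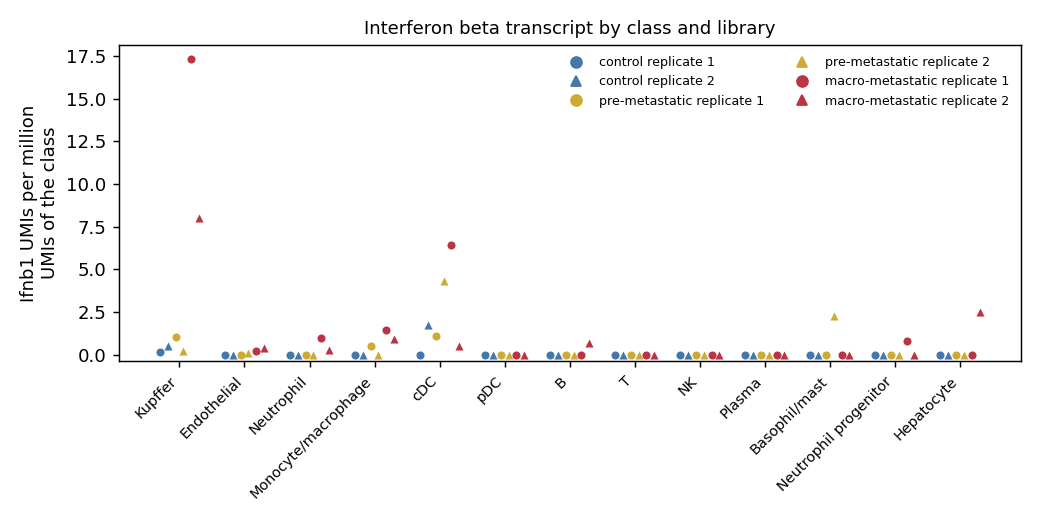
Ifnb1 level in CPM of the class (y axis) in each cell class (x axis), with each point 1 library, colours for groups, circles for replicate 1 and triangles for replicate 2. Kupffer cells of the macro-metastatic libraries stand highest among the named classes, with 463 and 230 UMIs against 1 and 3 in controls. Unnamed and mixed clusters, whose levels were near those of Kupffer cells, are not drawn.

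The receptors and signal transducers gave 34 higher and 13 lower calls of 186 pairs from 16 genes (25.3%) between macro-metastatic and control livers. Of the pairs of all genes, 18.1% were called, with 10.9% higher and 7.28% lower. The shares of this list and of those below were not tested against it. Stat3 in NK cells went from 196 and 256 through 285 and 302 to 995 and 1039 CPM (2.16 ± 0.21, adjusted p = 1.82e-06). Jak2, the kinase of the type II receptor, went from 59.2 and 67.0 through 93.5 and 85.7 to 186 and 202 CPM in endothelial cells (1.62 ± 0.15, adjusted p = 0.000525). Irf8 in T cells went from 21.8 and 21.8 to 189 and 111 CPM (2.76 ± 0.30, adjusted p = 0.0002), and Irf1 in hepatocytes from 26.3 and 28.9 to 129.7 and 208 CPM (2.76 ± 0.46, adjusted p = 0.000919). Irf1 rested there on 7 and 88 macro-metastatic UMIs. Kupffer markers rose in T cells and in hepatocytes, as given above, and their part here was not tested. For Jak2 and Stat3 the 2 macro-metastatic replicates were close to each other, unlike those of Isg15 or Oasl1.

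Sensors and adaptors gave 20 higher and 7 lower calls of 123 pairs from 12 genes (22.0%, all genes 18.1%). Trim25, the ligase that activates RIG-I, went from 131 and 148 through 249.7 and 262 to 431 and 415 CPM in Kupffer cells (1.60 ± 0.13, adjusted p = 4.42e-05), and it was also called between pre-metastatic and control livers (0.88 ± 0.13, adjusted p = 0.0312). Sting1, the adaptor of cytosolic DNA sensing, went from 40.0 and 30.9 through 83.8 and 72.8 to 186 and 127 CPM in endothelial cells (2.14 ± 0.22, adjusted p = 0.000828). Cgas, the DNA sensor upstream of it, went from 9.89 and 11 to 31 and 30.6 CPM there (1.55 ± 0.22, adjusted p = 0.00254). Both partners of the DNA-sensing pair were thus higher in the same class. Ticam1, the adaptor of Tlr3 and Tlr4, went from 5.32 and 6.98 to 14.3 and 14.8 CPM in Kupffer cells (1.25 ± 0.21, adjusted p = 0.00238).

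The inhibitors gave 23 higher and 6 lower calls of 109 pairs from 9 genes (26.6%, all genes 18.1%). Socs3, which blocks signalling through Jak kinases, rose in hepatocytes from 8.54 and 7.11 through 32.8 and 58.2 to 129.7 and 215 CPM (4.59 ± 0.42, adjusted p = 1.37e-05), and already in pre-metastatic livers (2.51 ± 0.38, adjusted p = 0.00281). Its macro-metastatic values rest on 7 and 91 UMIs, and the part of the Kupffer markers that rose in this class was not tested. Pias1, an inhibitor of Stat proteins, fell in Kupffer cells from 157 and 169 to 113 and 111 CPM (-0.54 ± 0.12, adjusted p = 0.00766), while Samhd1 there went from 298 and 269 to 443 and 451 CPM (0.66 ± 0.12, adjusted p = 0.00388). A list around the attachment of Isg15 held Uba7, Ube2l6, Herc6 and Uba1, the last of which activates ubiquitin. It gave 0 higher and 1 lower call of 45 pairs from 4 genes (2.2%, all genes 18.1%). The lower one was the conjugating enzyme Ube2l6 in the monocyte and macrophage class, from 138 and 107 to 50.8 and 43.3 CPM (-1.36 ± 0.31, adjusted p = 0.0303). Uba7, the activating enzyme of Isg15, went from 13.6 and 12.7 to 17.8 and 20.03 CPM in Kupffer cells (0.53 ± 0.21, adjusted p = 0.0786).

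A longer list of 84 tested interferon-stimulated genes outside the set gave 139 higher and 65 lower calls of 819 pairs (24.9%, all genes 18.1%). Slfn2 in Kupffer cells went from 28.8 and 28.9 through 65.1 and 56.6 to 663 and 585 CPM (4.44 ± 0.16, adjusted p = 4.54e-06) and was called in pre-metastatic livers as well (1.08 ± 0.14, adjusted p = 0.0254). Psmb8, an immunoproteasome subunit, went from 23.3 and 28.4 through 17.5 and 18.6 to 162 and 172 CPM there (2.70 ± 0.14, adjusted p = 7.64e-06). Both differed little between the macro-metastatic replicates, in which most of the set differed. Pre-metastatic against control this list gave 5 higher calls of 819 pairs (0.6%, all genes 0.253%). Among them were Ifi207 in T cells (1.88 ± 0.33, adjusted p = 0.0464) and Slfn4 in hepatocytes (4.78 ± 0.93, adjusted p = 0.0139).

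Counted by cells, the rise was seen at equal depth. Each Kupffer cell was thinned to 1000 UMIs, since median UMIs per Kupffer cell were 9098 to 15437.5. A UMI of Rsad2 was then found in 7.57% and 6.65% of control, 7.59% and 11.46% of pre-metastatic and 48.11% and 30.02% of macro-metastatic Kupffer cells. Without thinning the shares were 46.02% and 38.33%, then 50.65% and 52.72%, then 86.33% and 71.13%. For Isg15 the thinned shares were 0.44% and 0.32%, then 0.55% and 1.12%, then 13.82% and 3.41%, and for Oasl1 7.13% and 7.94%, then 11.86% and 13.33%, then 50.25% and 16.25%. In T cells, Rsad2 at this depth was found in 0.62% and 0.71%, then 0.90% and 1.34%, then 5.88% and 3.34%. In neutrophils it was found in 14.63% and 12.20% of control and 23.91% and 9.90% of macro-metastatic cells, with the controls inside the macro-metastatic range. No class in the liver is known to lack these genes, so a share due to free RNA was not measured apart.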

How the data were processed

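Single-cell RNA of whole mouse livers was captured on the BD Rhapsody system, per the labels' protocols, after mincing, collagenase II digestion, sieving, red cell lysis and removal of dead cells. The authors deposited raw UMI counts for every gene in every cell barcode. Tools named in the submitters' processing notes are CASAVA 1.8 and UMI-tools, on mm10. Aligner, annotation and strand setting: not given in the sources used here.

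Members of the set, the other gene lists and the 4 genes set apart were chosen with earlier results of these data known. Barcodes with at least 300 genes and at most 25% mitochondrial UMIs were kept, and 1537 predicted doublets (score above 0.282 at an expected 6%) were left out. Clusters were made with scanpy 1.11.5 (2000 variable genes without the set, the longer interferon list and mitochondrial genes, 30 components, 15 neighbours, Leiden resolution 1, giving 41 clusters). A cluster was named by at least 3 markers found in at least 10% of its cells, and clusters with over 30% doublets were called mixed. The unnamed clusters and those of cholangiocytes and stellate cells entered no test.

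UMIs were summed per library and class. edgeR 4.0.16 (R 4.3.3) fitted all 6 libraries by group in each class, with filterByExpr, trimmed-mean scaling, the quasi-likelihood test with 3 residual degrees of freedom and Benjamini-Hochberg adjustment over all genes tested in the class. Differences from B cells were tested as an interaction with the library as a block. The code was tested on simulated data in which 200 genes were changed. Genes named are Isg15, Oasl1, Oas1a, Rsad2 and those called in at least 1 class and comparison, in up to 3 classes each by adjusted p. From the other lists up to 4 called genes a comparison were eligible, and ligands are given by UMIs. Counting intervals (95%) and floors (3 counts) cover counting error only. Alternatives were library sizes without scaling, DESeq2 1.42.0, no filter on low counts, a replicate block, correction for GC content and length alone or with the block, classes gated on single cells, doublets kept, T cells as the reference, and each library left out in turn. Promoter sequences came from RefSeq (GRCm38.p6) and gene positions from GENCODE M21.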

Additional observations from a re-analysis of the deposited data

Results flagged for a closer look

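These pairs changed by an amount that differed from the change in B cells of the same libraries, by edgeR's quasi-likelihood test of the interaction between class and group (macro-metastatic against control, log2 difference from B cells). Rsad2 had differences of -2.90 in endothelial cells, -3.65 in neutrophils, -4.42 in neutrophil progenitors and -2.33 in cDC. Ifih1, the MDA5 gene, had differences of -4.36 in basophils and mast cells, -1.97 in endothelial cells and -2.11 in hepatocytes. Eif2ak2, the PKR gene, had -3.23 in basophils and mast cells and -2.33 in cDC. Rtp4 had -1.58 in Kupffer cells and -2.35 in the monocyte and macrophage class, Parp14 had -1.75 in the latter, and Oasl1 had -1.68 in neutrophils. Stat2 in endothelial cells was the one pair above B cells, by 1.04. B cells held 8 Rsad2 UMIs in controls, and Kupffer markers in B cells went from 74.7 and 97.2 CPM in controls to 431.8 and 451.6 in macro-metastatic livers. The rise of Ifih1 in B cells, the reference here, was a call lost in 4 of 14 alternatives. Endothelial markers in basophils and mast cells went from 11183.4 and 8178.7 CPM in controls to 523.9 and 432.4 in macro-metastatic livers. The part of these Kupffer and endothelial markers in the differences was not tested. Nor was that of endothelial markers in the control cells of the neutrophil progenitor class.

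A signal was also seen in cells that entered no comparison. In the clusters that no marker list named, the 29 genes together stood at 1020.6 and 938.3 CPM in the control pair, 1192.7 and 1864.3 in the pre-metastatic pair, and 2686.5 and 2391.3 in the macro-metastatic pair of livers. Both macro-metastatic libraries lay above the controls. These clusters differed between groups in their make-up: control cells lay mostly in cluster 1 (259 and 346 cells), macro-metastatic replicate 1 mostly in clusters 23 and 19 (837 and 510 cells), and cluster 38 held 425 cells of macro-metastatic replicate 2 and 2 of replicate 1. A difference in level thus cannot be told apart from one in make-up. These clusters held 13.3% and 15.5% of the set's UMIs in the macro-metastatic libraries.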

How the results depend on the processing

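No called pair reversed its direction under any alternative, and 18 of 87 called pairs were called under every alternative run for them. Macro-metastatic against control (37 higher, 8 lower), the higher calls were 66 with no filter on low counts, and the lower calls were 29 with no filter, 17 without scaling of library sizes (32 higher) and 4 with classes gated on single cells. Leaving out each library in turn gave 19 to 58 higher and 0 to 22 lower calls. Pre-metastatic against control (0 and 0), there was 1 higher call without scaling, with DESeq2, with the replicate block and with GC and length correction plus block, and with no filter there were 19 higher and 5 lower. Leaving out each library gave 0 to 5 higher and 0 to 2 lower calls. Macro-metastatic against pre-metastatic (26 and 16), no filter gave 64 and 42, no scaling gave 20 and 38, GC and length correction gave 15 and 16, and leaving out each library gave 8 to 44 and 3 to 37. The lowest higher count, 8, came without pre-metastatic replicate 1. Without macro-metastatic replicate 1 the split was 17 and 37, and without replicate 2 it was 44 and 3. Against B cells (1 higher, 13 lower), T cells as the reference gave 9 higher, and leaving out each library gave 0 to 2 higher and 4 to 20 lower calls, and 0 to 1 lower in pre-metastatic livers. The cause of these shifts was not tested.

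The same replicate numbers occur in all groups, but the labels do not say that they pair libraries, and the deviations of same-numbered libraries correlated from -0.307 to 0.429 over the pairs of groups and classes checked. With the replicate block the counts were 38 and 8 against control, 1 and 0 for pre-metastatic against control, and 30 and 20 for macro-metastatic against pre-metastatic. Of the 45 calls against control, 26 were lost without control replicate 1 and 23 without control replicate 2, 16 and 13 without macro-metastatic replicates 1 and 2, and 14 with GC and length correction. Where an arm was left with 1 library, that library was assumed to vary like the others. Depth limits the small classes: plasma cells had 8 genes of the set past the filter and NK cells 11.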
